A study of Mus musculus with 8 samples.

Results

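The comparison concerned mouse abdominal skin that had received only the solvent acetone, 24 h after application against 4 h after application. It comprised the 4 arrays labelled with acetone, 2 at 24 h and 2 at 4 h, out of 8 arrays in the series. Their columns were taken by label alone, and no measured value was used to choose them. The skin came from female C57BL/6JNarl mice aged 6 to 8 weeks. In all 4 groups of the series 100 µL of liquid was pipetted onto the skin and dried in air. This was acetone alone at 24 h and at 4 h, and acetone with 10 µg/µL shikonin, a naphthoquinone of the plant Lithospermum, at the same times. Total RNA of the skin was read on single-colour arrays with 2 arrays per group, and every value is a deposited, normalized linear intensity. The methods describe duplicate samples hybridised to separate chips and speak of independent experiments, but do not tie the arrays to separate animals, so p-values measure the spread between arrays, part of which may be technical. Untreated skin was not analysed here, so the values describe 24 h against 4 h and not either time against resting skin. No source used here gave the time of day of sampling, and the 24 h and 4 h groups each lay on arrays of their own, so time after acetone, time of day and array batch cannot be told apart.

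Acetone extracts lipids from the stratum corneum, the dead outer layer that keeps water in the skin. Disturbed keratinocytes release stored interleukin-1 and switch on chemokines, which draw neutrophils and then monocytes into the dermis, together with the stress keratins Krt6 and Krt16, small proline-rich proteins that reinforce the cornified envelope, and ligands of the EGF receptor. These programmes are known to be transient in barrier-injured skin. Skin cells also hold a circadian clock, in which Clock and Arntl drive the Per, Cry and Nr1d genes, whose products repress Clock and Arntl in turn.

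The 4 acetone arrays had medians of 1128.8 to 1129.3 intensity units, and 62 to 64 probes per array were saturated. The replicates correlated with r = 0.9876 at 24 h and r = 0.9917 at 4 h across 13853 probes, and arrays of different times with 0.9462 to 0.9631. The second 24 h array lay nearer to both 4 h arrays (0.9631 and 0.9624) than the first 24 h array did (0.9483 and 0.9462). At an adjusted p under 0.05 (limma, Benjamini-Hochberg over all probes), 2144 probes (15.5%) rose and 1961 (14.2%) fell at 24 h relative to 4 h. These shares are the background for the list counts below, and a list near them changed about as often as any probe. The larger changes were mostly falls. Of the probes that passed, 202 rose and 625 fell at least 2-fold, and of 9987 genes 4 rose and 56 fell at least 4-fold. All values of 1 group lay above those of the other in many more probes, 5266 (38%) with 24 h higher and 4140 (29.9%) with 24 h lower. The split of calls depends on the scaling. With each array scaled to the median level of its cytosolic ribosomal protein probes, which moved the median of all probes to -0.22 from 0.06, 515 probes rose and 3287 fell. That scaling did not centre the ribosomal protein genes themselves, whose median difference was -0.24 after it and 0.04 before. With each array shifted instead by the median deviation of the same probes from their own means, a setting chosen after seeing the data, the ribosomal median was -0.01, the median of all probes 0.01, and 1573 probes rose and 2200 fell. List counts under the scaling and the shift are given where they bear on a list. Leaving out an acetone array lowered the counts to between 787 and 1743 higher and between 842 and 1805 lower, with the fewest higher without 4 h replicate 1 and the fewest lower without 4 h replicate 2. Counts of the lists fell as well, and those of 3 or more that moved by over 1.5 times are given with the list, while counts of 1 or 2 often fell to 0 or 1.

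**Figure D1:**
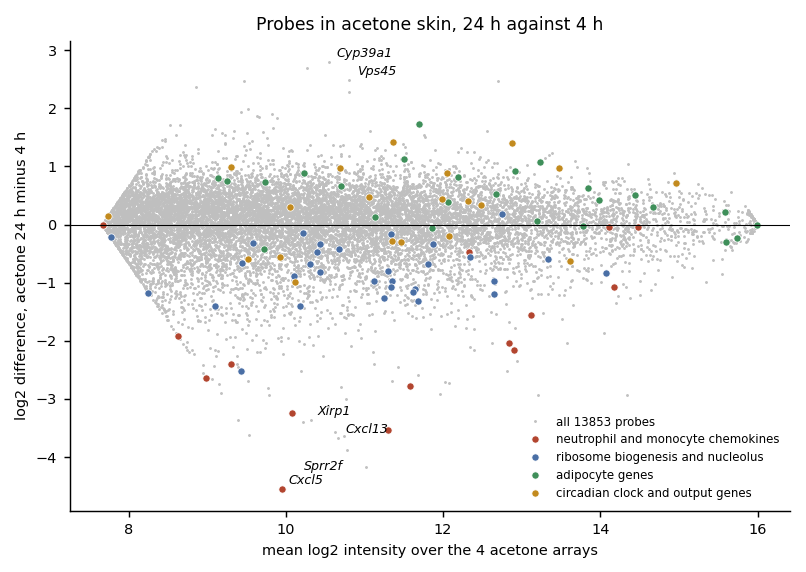
Log2 difference of each of 13853 probes between acetone 24 h and acetone 4 h (vertical axis) against its mean log2 intensity over the 4 acetone arrays (horizontal axis), with 4 gene lists in colour, each gene by 1 probe. The chemokines reached -4.55 and most ribosome biogenesis genes lay below 0, while most adipocyte genes lay above 0.

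Chemokines of neutrophils and monocytes showed the deepest fall of all 50 gene lists. Of 16 measured genes 11 fell and 0 rose, which is 68.8% of them, with a median log2 difference of -1.97, against 0.05 over all 9987 genes. Cxcl5 and Cxcl1, ligands of the neutrophil receptor Cxcr2, led the list. Levels are given in intensity units for the first and the second array of each time, and differences, also those in brackets, are log2 of 24 h minus 4 h. Cxcl5 had 90.6 and 74.5 at 24 h, against 4841 and 4703 at 4 h. Both 24 h values lie under the floor of 203.4 below which intensities were not resolved, so Cxcl5 was at least 23.5-fold lower (-4.55, standard error 0.09, adjusted p = 3.81e-08). Cxcl1 had 693 and 784 at 24 h, against 8319 and 8815 at 4 h (-3.54, standard error 0.09, adjusted p = 1.95e-07), and Cxcl2, another ligand of the same receptor, had 268 and 285 at 24 h, against 1417 and 1482 at 4 h (-2.39, standard error 0.09, adjusted p = 1.07e-06). In each of the 3 genes the replicates lay close together and the times did not overlap.

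The monocyte chemokine Ccl2 had 1168 and 1165 at 24 h, against 8137 and 7868 at 4 h (-2.78, standard error 0.09, adjusted p = 5.76e-07). Ccl4 had 406 and 305 at 24 h, against 3181 and 3481 at 4 h (-3.24, standard error 0.14, adjusted p = 1.74e-06), and the related chemokine Ccl3 had 159 and 140.2 at 24 h, against 1132 and 1419 at 4 h and was at least 6.23-fold lower (adjusted p = 8.73e-06). Ccl7 was also at the floor at 24 h (at least 3.76-fold lower, adjusted p = 2.92e-04). Ccl12, which acts with Ccl2 on the receptor Ccr2, fell by less, with 4422 and 2951 at 24 h, against 14534 and 15189 at 4 h (-2.04, standard error 0.16, adjusted p = 7.70e-05). The other members moved less. Ccl6 (-1.55), Ccl9 (-1.08) and Ccl24 (-0.46) fell but stayed far above the floor, and the eosinophil chemokine Ccl11 had 17836 and 17026 at 24 h, against 17602 and 18246 at 4 h (adjusted p = 0.807). Ccl8 had 2936 and 4436 at 24 h, against 18069.7 and 14329 at 4 h. Its log2 difference of -2.16 had a standard error of 1.78 and did not pass (adjusted p = 0.386) in the fit over all 8 arrays, in which the shikonin duplicates of Ccl8 had 11085 and 4.9 at 24 h. On the 4 acetone arrays alone 12 of the 16 genes fell. Pf4, a platelet chemokine, did not pass (-0.04), and Ppbp and Cxcl3 were at the floor on all 4 arrays.

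Of the chemokines that attract lymphocytes, 5 of 12 fell and 0 rose (median -0.29). Cxcl13, which attracts B cells, had 387 and 529.5 at 24 h, against 5696 and 5903 at 4 h (-3.68, standard error 0.17, adjusted p = 2.90e-06). The interferon-induced ligands of Cxcr3 fell too. Cxcl9 had 3899.9 and 2996 at 24 h, against 26535 and 25665 at 4 h (-2.93, standard error 0.14, adjusted p = 2.72e-06) and remained far above the floor at 24 h. Cxcl10 had 529.8 and 451 at 24 h, against 2676 and 2906 at 4 h (-2.51, standard error 0.15, adjusted p = 1.49e-05), Ccl5 was at least 3.70-fold lower (adjusted p = 5.98e-04) and Ccl20 fell by 1.01. The remaining members Cxcl12 (-0.27), Cxcl14 (-0.32), Ccl17 (0.34), Ccl22 (0.29), Cxcl16 (0.10), Cx3cl1 (0.32) and Xcl1 (0.08) did not pass.

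Promoters of both Cxcl1 and Cxcl9 hold short matches to the core recognised by NF-kB, the inflammatory transcription factor, and they are shown because these genes showed large falls. The core searched was GGGNNTTTC on both strands of RefSeq promoters (250 bases before to 50 after the start, GRCm38.p6), and for Cxcl9 also GAAANNGAA, a core of interferon regulatory factors. Capitals mark the matches, none of which overlap. The Cxcl1 stretch is chr5:90891097-90891242 on the plus strand, with matches that begin 88 and 71 bases before the start. The Cxcl9 stretch is chr5:92328165-92328314 on the minus strand, with the interferon core 175 and the NF-kB core 154 bases before the start.
Cxcl1: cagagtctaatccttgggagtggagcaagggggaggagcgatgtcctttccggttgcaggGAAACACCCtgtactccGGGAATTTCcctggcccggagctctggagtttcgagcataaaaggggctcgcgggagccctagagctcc
Cxcl9: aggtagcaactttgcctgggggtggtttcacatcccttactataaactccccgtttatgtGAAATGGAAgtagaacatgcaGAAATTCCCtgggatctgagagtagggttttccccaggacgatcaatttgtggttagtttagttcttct
The NF-kB core stood in 4 of 10 neutrophil and monocyte chemokines with a promoter (40%), against 1368 of all 27025 genes with one (5.06%). Of the 4, Cxcl1, Cxcl2 and Ccl9 fell and Cxcl3 was at the floor. In the lymphocyte list, to which Cxcl9 belongs, each core stood in 3 of 10 genes (30%), against 9.76% of all genes for the interferon core. There Xcl1, with the NF-kB core, and Cxcl14, with the interferon core, did not pass. These matches describe the sequence, and binding was not measured.

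**Figure D2:**
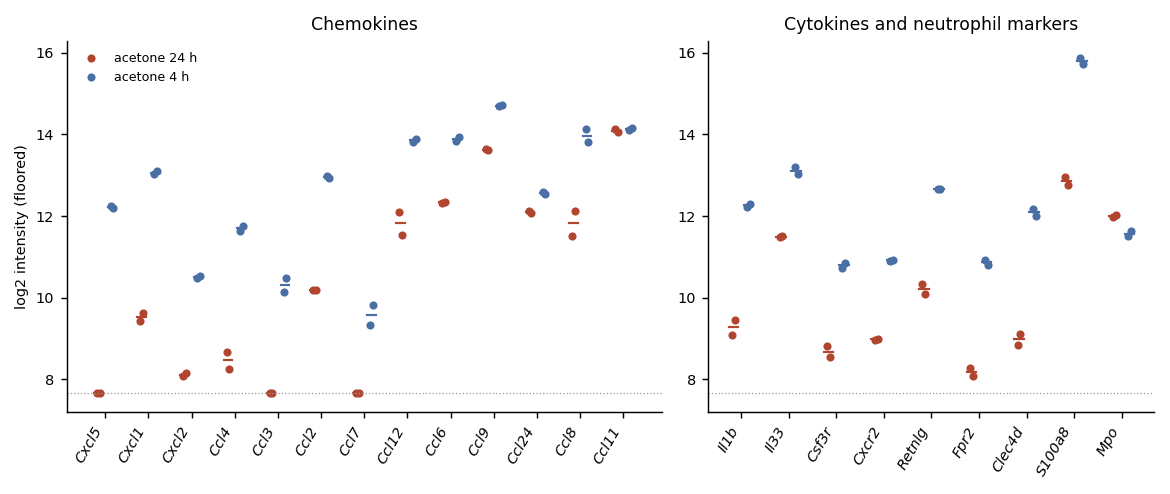
Log2 intensity (vertical axis, floored at 7.67, dotted line) of chemokines, cytokines and neutrophil markers on each acetone array, with 24 h left of 4 h in each gene; points are single arrays and bars are means of 2. Cxcl5, Ccl3 and Ccl7 sat at the floor at 24 h, Ccl11 did not differ beyond its spread, and Mpo alone among the markers drawn was higher at 24 h.

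Among the cytokines 7 of 24 measured genes fell (29.2%) and 4 rose (16.7%), against 14.2% and 15.5% of all probes (median -0.06). Il1b, the inflammatory interleukin-1 made by leukocytes, had 541 and 702 at 24 h, against 4813 and 5053 at 4 h (-3.0, standard error 0.18, adjusted p = 1.47e-05). Il33, an alarmin stored in cell nuclei, had 2869.7 and 2905 at 24 h, against 9353 and 8384 at 4 h (-1.62, standard error 0.10, adjusted p = 1.47e-05). The keratinocyte cytokine Il1f6 of the IL-36 group (-0.92), the receptor antagonist Il1rn (-1.11) and Csf1, the growth factor of macrophages (-1.10), fell by about 1 log2 unit, and Il1f9 (-0.95) and Il24 (at least 1.60-fold) fell as well. Il1a, the form that keratinocytes store, did not pass (-0.04), nor did Tnf (-0.12), and Il6, Il19 and Csf3 were at the floor on all 4 arrays.

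Among the cytokines that rose, Tslp, thymic stromal lymphopoietin, had 1636 and 1833 at 24 h, against 781 and 879 at 4 h (1.06, standard error 0.15, adjusted p = 0.00161). Il7, which sustains lymphocytes, had 2951 and 2707 at 24 h, against 1602 and 1709.8 at 4 h (0.77, standard error 0.14, adjusted p = 0.00478), and Il18 had 16260.3 and 13308 at 24 h, against 8938 and 9695 at 4 h (0.66, standard error 0.13, adjusted p = 0.0076). Ctf1 rose by 0.70 (adjusted p = 0.0298). In Tslp, Il7 and Il18 no 24 h value was as low as any 4 h value, as in 38% of all probes. Il18 did not pass without 4 h replicate 1 or 24 h replicate 1. Without 24 h replicate 1 the number that rose was 2.

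NF-kB feedback genes fell with the chemokines, 9 of 22 with 0 rising (median -0.37), and 4 of 22 on the 4 acetone arrays alone. Nfkbia, the inhibitor that NF-kB induces, had 3106 and 6286 at 24 h, against 10538 and 12455 at 4 h (-1.37, standard error 0.31, adjusted p = 0.0113), with the first 24 h array well below the second, and did not pass without either 4 h array or without 24 h replicate 1. Tnfaip2 (-1.38), Tnfaip3 (-0.91), which edits ubiquitin to stop the signal, and the adhesion molecules Icam1 (-0.85) and Vcam1 (-0.76) fell, whereas the subunits Rela (-0.24), Relb (0.14) and Nfkb1 (0.00) did not pass. Immediate early genes fell in 13 of 29 and rose in 1 (median -0.37). Fosl1, a Fos relative of migrating keratinocytes, had 399.8 and 312 at 24 h, against 3206 and 3432 at 4 h (-3.23, standard error 0.14, adjusted p = 1.87e-06). Fos had 5729 and 5402 at 24 h, against 11383 and 11682 at 4 h (-1.05, standard error 0.08, adjusted p = 9.15e-05), and Dusp1, a phosphatase of MAP kinases, had 4731 and 7165 at 24 h, against 17296 and 16003 at 4 h (-1.51, standard error 0.18, adjusted p = 6.69e-04). Dusp6 (-1.25), Egr1 (-0.79) and Zfp36 (-0.76) fell too, Jun (0.27) and Myc (0.08) did not pass, and Ccn2, a matrix-associated growth modulator, rose by 0.38, which did not pass without either 4 h array or 24 h replicate 1. Without 4 h replicate 2, 8 of the 29 fell, and without either 4 h array 4 of the 22 NF-kB genes did.

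Transcripts of neutrophils were lower at 24 h in 11 of 22 measured markers and higher in 1 (median -0.70). The mean log2 intensity over the list was 9.44 and 9.37 at 24 h, against 10.50 and 10.48 at 4 h. S100a8, a subunit of calprotectin, had 8006 and 6999 at 24 h, against 60622 and 54138 at 4 h (-2.94, standard error 0.10, adjusted p = 5.76e-07), and its partner S100a9 had 328 and 636 at 24 h, against 6465 and 4536 at 4 h (-3.57, standard error 0.27, adjusted p = 6.82e-05). The surface receptors of mature neutrophils fell together. Csf3r had 448 and 373 at 24 h, against 1706 and 1853 at 4 h (-2.12, standard error 0.21, adjusted p = 2.84e-04), Cxcr2 had 501 and 505 at 24 h, against 1915 and 1933 at 4 h (-1.94, standard error 0.10, adjusted p = 5.29e-06) and Fpr2, a receptor of formyl peptides, had 308 and 272 at 24 h, against 1949.9 and 1789.6 at 4 h (-2.69, standard error 0.12, adjusted p = 1.87e-06). The lectin Clec4d (-3.11) and the resistin-like Retnlg (-2.46) fell too, and Mmp8 was at least 2.25-fold lower. Not every granule gene moved so. Mpo had 4024 and 4149.5 at 24 h, against 2899 and 3187 at 4 h and was slightly higher at 24 h (0.43, standard error 0.13, adjusted p = 0.0368), a rise that did not pass when any acetone array was left out. Ltf did not pass (0.28), and Ngp, Trem1 and Cd177 were at the floor on all 4 arrays. S100a8, S100a9 and Lcn2 are also made by stressed keratinocytes. In RNA of whole skin, fewer cells of a type and less RNA per cell cannot be told apart, here and in the groups that follow.

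Markers of monocytes and macrophages fell in 16 of 27 and rose in 1 (median -0.58). Fcgr4, an activating Fc receptor, had 1198 and 1087 at 24 h, against 7291 and 8471 at 4 h (-2.78, standard error 0.12, adjusted p = 1.53e-06). Chil3, a chitinase-like protein, had 663 and 629.9 at 24 h, against 3198 and 2994 at 4 h (-2.26, standard error 0.11, adjusted p = 2.72e-06), and the scavenger receptors Msr1 (at least 3.91-fold) and Cd163 (at least 3.64-fold) and the high-affinity Fc receptor Fcgr1 (at least 3.49-fold) reached the floor at 24 h. Ctss (-1.62), Cd14 (-1.17), Lyz2 (-1.13) and Cd68 (-0.92) fell by less. Other markers changed less or rose. Csf1r, the receptor on which tissue macrophages depend, had 22488 and 21768 at 24 h, against 17026 and 17068 at 4 h (0.38, standard error 0.10, adjusted p = 0.0216) but did not pass when any 1 acetone array was left out, and Adgre1 (-0.24), Mrc1 (-0.03) and Folr2 (-0.19) did not pass.

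Other leukocytes changed in fewer markers. Of T cell and NK cell markers 5 of 16 fell and 0 rose, with Cd3g at 708 and 519 at 24 h, against 1399.5 and 1348 at 4 h (-1.18, standard error 0.21, adjusted p = 0.00458), Nkg7 (-1.02) and Il7r (-0.87), while Cd3e (-0.34) and Cd247 (-0.02) did not pass. None of 6 B cell markers passed, 0 higher and 0 lower, and of 9 mast cell markers the protease Cpa3 rose by 0.35, which did not pass without either 4 h array, without 24 h replicate 2 or on the 4 acetone arrays alone. In the list of MHC class II and dendritic cells 4 of 16 fell and 2 rose. Cd74, the invariant chain, had 11416 and 11177 at 24 h, against 17455 and 20523 at 4 h (-0.74, standard error 0.16, adjusted p = 0.00922) and the integrin Itgax had 499 and 710.4 at 24 h, against 1249 and 1408 at 4 h (-1.16, standard error 0.20, adjusted p = 0.00415), whereas Cd209a had 1429 and 1200.1 at 24 h, against 619 and 653 at 4 h (1.04, standard error 0.16, adjusted p = 0.00221). Cd74 did not pass without 4 h replicate 2 or 24 h replicate 1. The Langerhans cell lectin Cd207 did not pass (0.14). Without 4 h replicate 2 the falls were 3 of T cell and NK cell markers and 1 of the class II list, and without 24 h replicate 1 they were 3 and 2.

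Acute-phase and antimicrobial products fell in 13 of 24 and rose in 4 (median -0.49). Saa3, an amyloid protein of inflamed tissue, had 322 and 422 at 24 h, against 3795 and 3966 at 4 h (-3.40, standard error 0.13, adjusted p = 1.07e-06). Ptx3, a soluble pattern receptor, had 217 and 183 at 24 h, against 2044 and 2275 at 4 h (-3.36, standard error 0.13, adjusted p = 9.74e-07). Defb3, a beta-defensin of keratinocytes, was at least 5.87-fold lower (adjusted p = 1.25e-04), with Defb14 (-1.23), the protease inhibitor Slpi (-2.19) and the iron chelator carrier Lcn2 (-1.21) behind it. The 4 that rose did so by little, Chil1 (0.68), Spp1 (0.55), Orm2 (0.46) and Orm1 (0.39), and 1 of them passed without 4 h replicate 1 or 2, and 2 without 24 h replicate 1. Enzymes of inflammatory mediators fell in 5 of 19. Acod1, which makes itaconate in macrophages, had 80.2 and 83.4 at 24 h, against 923 and 941 at 4 h and was at least 4.58-fold lower (adjusted p = 2.72e-06), and Ptgs2, the inducible cyclooxygenase, had 116 and 97.7 at 24 h, against 380.0 and 473 at 4 h and was at least 2.08-fold lower (adjusted p = 0.0169). Ephx2, which degrades epoxy fatty acids, had 12942 and 10178 at 24 h, against 6118 and 7025 at 4 h (0.81, standard error 0.14, adjusted p = 0.0035). The count of falling enzymes was 3 without 4 h replicate 1, 2 without 4 h replicate 2 and 3 without 24 h replicate 1.

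Proteases of matrix and clotting followed. Of 21 metalloproteinases and inhibitors 10 fell and 2 rose, led downward by Adam8 (-1.47), Adamts1 (-1.38) and Mmp19 (-1.25). Mmp11 had 1603 and 1319 at 24 h, against 409 and 573 at 4 h (1.59, standard error 0.20, adjusted p = 9.91e-04) and Mmp23 rose by 0.85. Of 24 complement and coagulation genes 9 fell and 2 rose. The thrombin receptor partner Thbd was at least 4.33-fold lower, the urokinase receptor Plaur fell by 1.49 and tissue factor, F3, by 1.19, while C1s1, a protease of the C1 complex, had 988 and 949.6 at 24 h, against 298 and 321 at 4 h (1.65, standard error 0.16, adjusted p = 2.90e-04). Without 4 h replicate 1, 4 complement and coagulation genes fell.

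Of 35 cornified envelope genes 15 fell and 1 rose (median -0.32), and 9 of the 15 were small proline-rich genes. Sprr2f had 252 and 253 at 24 h, against 5132 and 4984 at 4 h (-4.32, standard error 0.12, adjusted p = 2.19e-07), the second largest fall among all genes. Sprr2h had 355 and 659 at 24 h, against 6420.4 and 5659.9 at 4 h (-3.64, standard error 0.25, adjusted p = 3.33e-05), and Sprr1b had 1436 and 1462 at 24 h, against 10562 and 11232 at 4 h (-2.91, standard error 0.10, adjusted p = 6.36e-07). Sprr2i (-3.63), Sprr2e (-2.93), Sprr2j-ps (-2.90), Sprr2d (-2.52) and Sprr1a (-1.08) fell as well. The Sprr2 genes are near-identical copies, so their probes may share signal and they are not separate observations. Lce3f had 3325 and 3661 at 24 h, against 17697 and 17836 at 4 h (-2.35, standard error 0.09, adjusted p = 9.74e-07) and Lce3b fell by 2.23, and both belong to the late envelope group that is induced by barrier injury.

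Among the keratins, Krt16 had 1361 and 1937 at 24 h, against 11700.0 and 9692 at 4 h (-2.71, standard error 0.17, adjusted p = 1.83e-05) and its partner Krt6a had 4041 and 3617 at 24 h, against 11080.2 and 11099 at 4 h (-1.54, standard error 0.11, adjusted p = 4.10e-05). Krt5 (0.47) and Krt15 (0.52), keratins of the basal layer, rose slightly and the other 2 calls of the list were falls. Neither rise passed without either 4 h array, without 24 h replicate 1 or under the ribosomal scaling. The list's other genes, 9 of 13, did not pass, among them Krt1 (-0.19) and Krt2 (0.42), with Krt10 saturated at both times. Filaggrin, Flg (0.03), involucrin, Ivl (-0.30), and the cross-linking Tgm1 (-0.19) did not pass either. Of 33 genes of barrier lipids and proteases 6 rose (18.2%) and 3 fell (9.09%), against 15.5% and 14.2% of all probes. The ceramidase Acer1 had 19076 and 18399.8 at 24 h, against 9489 and 9439 at 4 h (0.99, standard error 0.11, adjusted p = 4.40e-04), Fa2h, which hydroxylates the fatty acids of ceramides, had 23609 and 23666 at 24 h, against 14628 and 13443 at 4 h (0.75, standard error 0.10, adjusted p = 0.00133), and Casp14, the protease that degrades filaggrin, had 8536 and 8967 at 24 h, against 5336 and 5207 at 4 h (0.73, standard error 0.12, adjusted p = 0.00306). Between 2 and 3 of the list rose when an acetone array was left out, with 2 without either 4 h array and 3 without either 24 h array. The 3 falls were 1 without 4 h replicate 1, 0 without 4 h replicate 2 and 2 without either 24 h array.

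Ligands of the EGF receptor and wound-edge keratinocyte genes, a list that also holds Krt16, Krt6a and Plaur, fell in 12 of 21 and rose in 1 (median -0.66). Epgn had 1099 and 972 at 24 h, against 4787 and 4698 at 4 h (-2.20, standard error 0.11, adjusted p = 4.28e-06), Hbegf had 857 and 763 at 24 h, against 1958 and 1856 at 4 h (-1.24, standard error 0.14, adjusted p = 5.04e-04) and Ereg had 757 and 1027 at 24 h, against 2482 and 2923 at 4 h (-1.61, standard error 0.38, adjusted p = 0.0138). Errfi1, the inhibitor that the receptor induces, had 257 and 276 at 24 h, against 1119 and 1279 at 4 h (-2.17, standard error 0.35, adjusted p = 0.0027). The integrins Itga3 (-1.16) and Itga6 (-0.96) and Tgfa (-0.66) fell, Egfr itself did not pass (0.01), and Egf had 1079 and 1207 at 24 h, against 753 and 726 at 4 h (0.63, standard error 0.16, adjusted p = 0.0168). Ereg did not pass without either 4 h array or 24 h replicate 1, nor Egf without either 4 h array or 24 h replicate 2. Without 4 h replicate 1 the count that fell was 7.

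**Figure D3:**
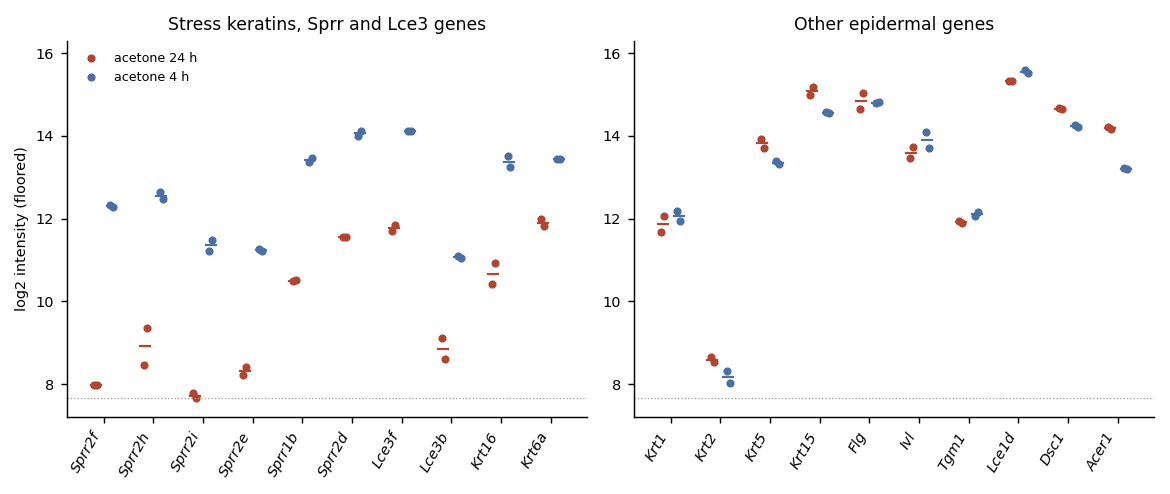
Log2 intensity (vertical axis, floored at 7.67, dotted line) of epidermal genes on each acetone array, with 24 h left of 4 h in each gene; points are single arrays and bars are means of 2. The stress genes on the left all lay lower at 24 h, from -1.54 for Krt6a to -4.32 for Sprr2f, while Krt1, Krt2, Flg, Ivl, Tgm1 and Lce1d on the right did not pass.

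Interferon-induced genes were lower at 24 h in 24 of 38 (63.2%) and higher in 2 (median -0.58), with mean log2 intensities over the list of 9.78 and 9.83 at 24 h, against 10.49 and 10.51 at 4 h. Oasl1, an antiviral oligoadenylate synthetase-like protein, had 226 and 169 at 24 h, against 1104 and 1178 at 4 h (-2.41, standard error 0.19, adjusted p = 7.34e-05). Ifi44 had 218 and 289.9 at 24 h, against 1144 and 1277 at 4 h (-2.26, standard error 0.31, adjusted p = 0.00151). Rsad2, the antiviral enzyme viperin, had 464 and 604 at 24 h, against 2032 and 2085 at 4 h (-1.96, standard error 0.15, adjusted p = 7.12e-05), and Isg15, a ubiquitin-like protein, had 1918 and 1649 at 24 h, against 4746 and 5510.2 at 4 h (-1.52, standard error 0.12, adjusted p = 6.16e-05). Ifit2 (-1.68), Ifit3 (-1.29), Ifi204 (-2.0), Irf9 (-1.02) and Mx2 (-1.01) fell too. The RNA sensor Ddx58 had 1151 and 767 at 24 h, against 565 and 666 at 4 h and was higher (0.62, standard error 0.20, adjusted p = 0.043), as was Dtx3l (0.52), and the regulator Irf7 did not pass (-0.31). Without 4 h replicate 1, 14 fell, and neither rise passed without either 4 h array or without 24 h replicate 1.

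Genes induced by interferon gamma fell in 10 of 15 with 0 rising (median -0.71). Iigp1, a GTPase that attacks vacuoles of pathogens, had 1001 and 943 at 24 h, against 6121 and 4281 at 4 h (-2.40, standard error 0.21, adjusted p = 1.36e-04). Igtp had 2967 and 2782 at 24 h, against 10452 and 9645 at 4 h (-1.81, standard error 0.11, adjusted p = 1.87e-05) and Irgm2 had 1950.3 and 2014 at 24 h, against 7076 and 6643 at 4 h (-1.79, standard error 0.11, adjusted p = 2.13e-05). Gbp2 (-1.11), the checkpoint ligand Cd274 (-1.16) and Irf1 (-0.71) fell by less. Of MHC class I and immunoproteasome genes 5 of 15 fell and 1 rose, and on the 4 acetone arrays alone 2 fell and 0 rose. Psmb10 had 4389.9 and 6257 at 24 h, against 12396 and 9708 at 4 h (-1.07, standard error 0.18, adjusted p = 0.00388). Psmb8 fell too (-0.88), while B2m did not pass (-0.39). Of that list 3 fell without 4 h replicate 2 or 24 h replicate 1.

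The Ifi44 promoter is shown because Ifi44 had the largest change among the interferon-induced genes whose promoter holds the core GAAANNGAA, searched on both strands. The stretch is chr3:151749861-151749973 on the minus strand, and the match in capitals, on the opposite strand, begins 3 bases before the start.
Ifi44: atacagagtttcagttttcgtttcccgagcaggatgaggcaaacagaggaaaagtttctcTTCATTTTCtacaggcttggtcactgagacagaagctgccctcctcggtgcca
The core stood in 14 of 27 interferon-induced genes with a promoter (51.9%) and in 8 of 10 genes induced by interferon gamma (80%), against 2638 of 27025 genes in all (9.76%). Of the 14, Ifi205, Eif2ak2, Samd9l, Oas3, Bst2 and Trim25 did not pass, Ddx58 rose and the others fell. Of the 8, Socs1 and Gbp3 did not pass and the others fell. Binding was not measured, and whether the core goes with the fall was not tested.

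Interferon genes changed differently over time in shikonin skin, which received the compound in acetone. The change over time differed between shikonin and acetone, by the test of the difference, in 38 of 38 interferon-induced genes, each more positive with shikonin, against 2928 probes (21.1%) more positive and 3071 (22.2%) more negative with shikonin over the whole array. The list's median change was 2.31 in shikonin skin and -0.58 in acetone skin. Ifit2 changed by 6.18 in shikonin skin and by -1.68 in acetone skin, and Rsad2 by 2.87 in shikonin skin and by -1.96 in acetone skin. Among neutrophil and monocyte chemokines the difference passed in 15 of 16 genes, 13 with shikonin more positive and 2 more negative. In shikonin skin Cxcl2 was saturated at both times, Cxcl1 at 4 h and on 1 array at 24 h, and Cxcl5 at 24 h. Ccl2, Ccl3 and Ccl4 were saturated on single arrays. The change of these 6 genes there is thus not fully measured.

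Most genes of ribosome assembly fell. Of 31 measured nucleolar and ribosome biogenesis genes 25 (80.6%) fell and 0 rose, with a median of -0.81. The median over the same genes in shikonin skin was -0.81 as well, although the difference in the change over time passed in 5 of them with shikonin more positive and in 9 with shikonin more negative. Rrp12, an export factor of both subunits, had 2117 and 2061 at 24 h, against 5248 and 5099 at 4 h (-1.31, standard error 0.11, adjusted p = 1.32e-04). Heatr1 had 4427 and 4008 at 24 h, against 9719.8 and 9660.1 at 4 h (-1.2, standard error 0.10, adjusted p = 1.32e-04), and Polr1a, the largest subunit of RNA polymerase I, had 698 and 726 at 24 h, against 1866 and 1917 at 4 h (-1.41, standard error 0.13, adjusted p = 2.16e-04). Nucleolin, Ncl, had 2218 and 2116 at 24 h, against 5097 and 4313 at 4 h (-1.11, standard error 0.15, adjusted p = 0.00134), and Npm1, nucleophosmin, had 1832 and 2404 at 24 h, against 4555 and 4838 at 4 h (-1.16, standard error 0.19, adjusted p = 0.00315). Tsr1 showed the largest fall (-2.52) but its 24 h arrays differed, at 193 and 409 at 24 h, against 1729 and 1588 at 4 h. Of 79 cytosolic ribosomal proteins listed 19 were measured, of which 2 were higher and 1 was lower, with a median of 0.04. Between 16 and 20 of the 31 fell when an acetone array was left out, the fewest without 4 h replicate 1.

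Chaperones and stress regulators were lower at 24 h in part. Of 26 heat shock genes 10 fell and 1 rose (median -0.27). The constitutive chaperone Hspa8 had 2321 and 2671 at 24 h, against 10182 and 6767 at 4 h (-1.74, standard error 0.18, adjusted p = 3.04e-04), the inducible Hspa1b had 4983 and 6681 at 24 h, against 14199 and 13631 at 4 h (-1.27, standard error 0.18, adjusted p = 0.00163) and Hsp90aa1 had 3098 and 3816 at 24 h, against 8519 and 7722 at 4 h (-1.24, standard error 0.16, adjusted p = 9.96e-04), while Hsp90ab1 (-0.08) and Dnajb1 (-0.29) did not pass. Hspb8 (-2.04) and its co-chaperone Bag3 (-1.04) fell. Of 30 genes of endoplasmic reticulum stress 12 fell and 3 rose, and on the 4 acetone arrays alone 5 fell and 3 rose. Hspa5, the luminal chaperone BiP, had 2396 and 2562 at 24 h, against 7219.5 and 7228 at 4 h (-1.54, standard error 0.17, adjusted p = 5.72e-04). Herpud1, which serves the degradation of misfolded proteins, was higher, at 1488 and 1389 at 24 h, against 707 and 811 at 4 h (0.92, standard error 0.14, adjusted p = 0.00248). Of 26 proteasome subunits 9 fell and 1 rose (median -0.25). Psmd6 had 1404 and 2801 at 24 h, against 5068 and 4761 at 4 h (-1.31, standard error 0.26, adjusted p = 0.00697), and here the first 24 h array was again the lower of its pair, and the fall did not pass without 4 h replicate 1. The count of falling subunits was 5 without 4 h replicate 1. The heat shock count was 6 without 4 h replicate 1, 5 without 4 h replicate 2 and 5 without 24 h replicate 1, and the endoplasmic reticulum count was 7 without 4 h replicate 1 and 6 without 4 h replicate 2.

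The NRF2 and xenobiotic list split evenly, 9 of 39 lower and 9 higher. Nfe2l2, which encodes NRF2, had 505 and 577 at 24 h, against 2185 and 1559 at 4 h (-1.77, standard error 0.22, adjusted p = 9.70e-04), and Srxn1 (-0.98), Txnrd1 (-0.85), Gsr (-1.11), Hmox1 (-0.59) and Akr1b8 (-1.02) fell too. Among those that rose, Cyp2b19, a keratinocyte cytochrome P450, had 8631 and 8664 at 24 h, against 4059 and 4152 at 4 h (1.07, standard error 0.16, adjusted p = 0.00196), Ephx1 had 5304 and 5081 at 24 h, against 2801 and 2604 at 4 h (0.94, standard error 0.16, adjusted p = 0.00388) and Gsta3 had 15341 and 14534 at 24 h, against 8124 and 8554 at 4 h (0.84, standard error 0.11, adjusted p = 0.00123), while Cyp1a1 did not pass (0.20). The rises were 5 without either 4 h array and the falls were 5 without 4 h replicate 2. Of 18 genes of metallothioneins and metal transport 8 fell and 2 rose, with the zinc importer Slc39a8 at 484 and 827 at 24 h, against 2171 and 1700.4 at 4 h (-1.60, standard error 0.24, adjusted p = 0.00208), Mt4 at -1.33 and the transferrin receptor Tfrc at 0.65, and the falls were 4 without 4 h replicate 1 and 5 without 4 h replicate 2.

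Clock genes changed in both directions. Of 20 measured clock and output genes 9 rose (45%) and 4 fell (20%), against 15.5% and 14.2% of all probes. Their median was 0.37. Dbp, an output factor that binds D-boxes, had 13107 and 11310.2 at 24 h, against 4510.2 and 4746 at 4 h (1.40, standard error 0.16, adjusted p = 7.16e-04). Per3 had 4449 and 4189.5 at 24 h, against 1713 and 1527 at 4 h (1.42, standard error 0.15, adjusted p = 4.95e-04), Per2 had 16646 and 15224 at 24 h, against 7898 and 8314 at 4 h (0.97, standard error 0.11, adjusted p = 5.90e-04) and Per1 had 784 and 1014 at 24 h, against 439 and 462 at 4 h (0.98, standard error 0.20, adjusted p = 0.00756). Nr1d1, the repressor REV-ERB alpha, had 2261 and 2365 at 24 h, against 1176 and 1167 at 4 h (0.98, standard error 0.13, adjusted p = 0.0013), with Tef (0.72), Wee1 (0.89), Cry2 (0.48) and Csnk1e (0.44) also higher. Other members fell. Arntl, which encodes BMAL1 and is repressed by Nr1d1, had 819 and 764 at 24 h, against 1409 and 1736 at 4 h (-0.98, standard error 0.21, adjusted p = 0.00952), and Nfil3, the D-box repressor, had 614 and 579 at 24 h, against 823 and 981 at 4 h (-0.59, standard error 0.19, adjusted p = 0.0405). Noct (-0.63) and Usp2 (-0.56) fell, and Clock (-0.28), Nr1d2 (0.30), Rora (0.34) and Bhlhe40 (0.40) did not pass. Nfil3 did not pass when any 1 acetone array was left out, nor did Arntl without 4 h replicate 2 or Per1 without 4 h replicate 1. Scaled to ribosomal protein probes, 7 rose and 7 fell, and under the shift 7 rose and 4 fell. On the 4 acetone arrays alone 8 rose and 2 fell. The falls were 1 without 4 h replicate 2 and 2 without 4 h replicate 1 or 24 h replicate 1. In shikonin skin the list's median was -0.11. Dbp rose there too, by 1.18, while Per1 (-0.65) and Cry2 (-0.91) fell in shikonin skin.

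Per3 is shown as the clock gene with the largest change whose promoter holds the D-box core TTATGNAA, on which Dbp and Tef act and Nfil3 competes. The stretch is chr4:151044756-151044915 on the minus strand, with matches that begin 205 and 158 bases before the start and no match to the E-box CACGTG.
Per3: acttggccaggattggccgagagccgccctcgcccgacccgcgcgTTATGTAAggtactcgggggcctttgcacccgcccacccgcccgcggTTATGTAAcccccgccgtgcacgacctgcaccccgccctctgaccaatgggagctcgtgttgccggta
The D-box core stood in 3 of 16 clock genes with a promoter (18.8%), against 1079 of 27025 genes (3.99%), and the E-box in 2 of 16 (12.5%), against 2187 genes (8.09%). Of the 3 genes with the D-box core, Per1 and Per3 rose and Noct fell, and binding was not measured.

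Of 23 genes induced by glucocorticoids, which also follow the day, 7 fell (30.4%) and 3 rose (13%). Of all probes 14.2% fell and 15.5% rose, so rises were no more frequent in this list. Its median was -0.20. Klf9 had 34455 and 30842 at 24 h, against 21461 and 22697 at 4 h (0.56, standard error 0.13, adjusted p = 0.013), a rise that passed only without 24 h replicate 2 when arrays were left out, and Lpin1 had 3928 and 3224 at 24 h, against 1723 and 1709 at 4 h (1.05, standard error 0.17, adjusted p = 0.00275), but Fkbp5 (-0.22), Sgk1 (-0.20) and Mt2 (-0.26) did not pass, and Pdk4, which spares glucose in fasting, had 901 and 1098 at 24 h, against 2927 and 3113 at 4 h (-1.60, standard error 0.25, adjusted p = 0.00237). Without 4 h replicate 1, 1 of the list rose.

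**Figure D4:**
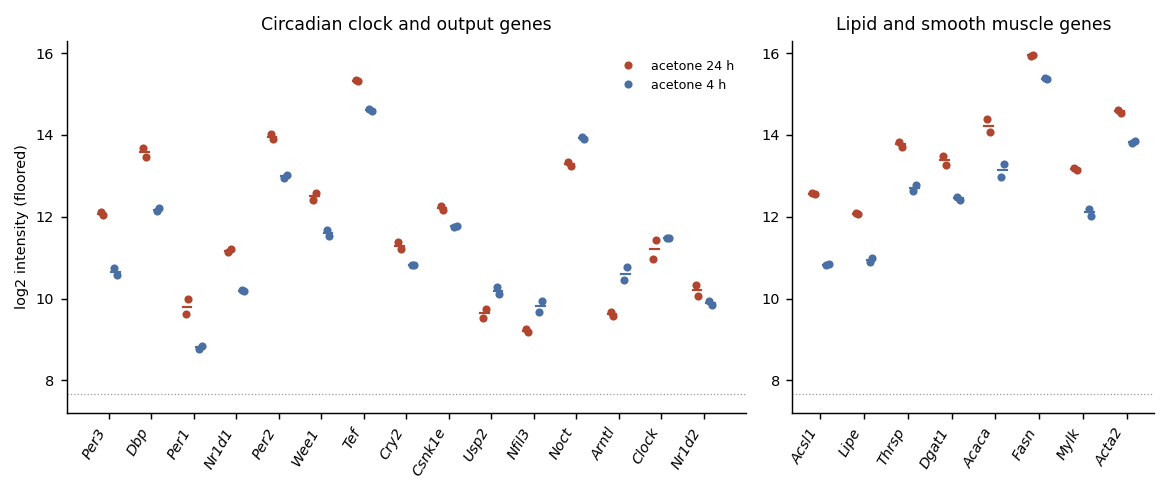
Log2 intensity (vertical axis, floored at 7.67, dotted line) of clock genes and of lipid and smooth muscle genes on each acetone array, with 24 h left of 4 h in each gene; points are single arrays and bars are means of 2. Per3, Dbp, Per1, Nr1d1 and Per2 lay higher at 24 h and Arntl, Nfil3, Noct and Usp2 lower.

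Few genes rose by much. Cyp39a1, a hydroxylase of oxysterols, had 4054 and 3850.2 at 24 h, against 888 and 365 at 4 h and the largest rise (2.79, standard error 0.36, adjusted p = 0.00116), although its 4 h arrays differed. Vps45, a factor of vesicle fusion, had 4169.6 and 4309 at 24 h, against 797 and 721 at 4 h (2.48, standard error 0.14, adjusted p = 8.51e-06). Hadh, an enzyme of mitochondrial beta-oxidation, had 1631 and 1699 at 24 h, against 303 and 302 at 4 h (2.46, standard error 0.20, adjusted p = 9.55e-05), and Man1a, a mannosidase of the Golgi, had 1087 and 1021 at 24 h, against 207 and 204 at 4 h (2.36, standard error 0.14, adjusted p = 1.56e-05). On the brightest probe of each gene and with values floored, these were the 4 genes that rose at least 4-fold. Stmn2, a microtubule regulator known from neurons, rose by 1.85, the amino acid carrier Slc38a5, at the floor at 4 h, was at least 3.29-fold higher, and Decr2, a reductase of peroxisomal fatty acid breakdown, rose by 1.71. The growth factor Ptn had 4219 and 3337 at 24 h, against 1125 and 1355 at 4 h (1.60, standard error 0.17, adjusted p = 3.48e-04) and Ffar4, a receptor of long-chain fatty acids, had 1037 and 985 at 24 h, against 335 and 341 at 4 h (1.58, standard error 0.14, adjusted p = 1.82e-04). Hepacam2 (1.61), Abca9 (1.58), Ldb2 (1.55), Arf5 (1.55), Chp2 (1.54), Serhl (1.5), Hnrnpa2b1 (1.49) and Nipsnap2 (1.47) complete the 20 largest rises with Acsl1, C1s1 and Mmp11.

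Lists with more rises than falls included those of fat and sterol metabolism. Adipocyte genes rose in 15 of 27 (55.6%) and fell in 1 (median 0.50). Acsl1, which activates fatty acids, had 6110.4 and 5981 at 24 h, against 1811 and 1837 at 4 h (1.73, standard error 0.13, adjusted p = 5.74e-05). Hormone-sensitive lipase, Lipe, had 4329.9 and 4258 at 24 h, against 1899 and 2035 at 4 h (1.13, standard error 0.14, adjusted p = 0.00106), the lipogenic regulator Thrsp had 14491 and 13437 at 24 h, against 6301 and 7025 at 4 h (1.07, standard error 0.14, adjusted p = 0.00114) and Dgat1, which makes triglyceride, had 11549.5 and 9809 at 24 h, against 5726 and 5479 at 4 h (0.93, standard error 0.12, adjusted p = 0.00102). The droplet proteins Plin1 (0.74) and Cidec (0.72) rose, but the defining Adipoq (0.22), Fabp4 (-0.42) and Lep (-0.06) did not pass. Sebaceous and sterol genes rose in 14 of 30 and fell in 2 (median 0.39). Fasn, the fatty acid synthase, had 62277 and 63593 at 24 h, against 42947 and 41935 at 4 h (0.57, standard error 0.08, adjusted p = 0.00187), Idi2 had 596 and 623 at 24 h, against 307 and 302 at 4 h (1.0, standard error 0.14, adjusted p = 0.00186) and Mvk, mevalonate kinase, had 886 and 868 at 24 h, against 469.5 and 494 at 4 h (0.87, standard error 0.16, adjusted p = 0.00533). Nsdhl fell on its brightest probe (-1.23) while a dimmer probe rose by 0.69, and Scd1 was saturated at 24 h and on 1 array at 4 h. Scaled to ribosomal protein probes, 6 adipocyte genes and 3 sterol genes rose, and under the shift 15 and 10. The count of rising sterol genes was 5 without either 4 h array and 8 without 24 h replicate 1.

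Contractile genes of smooth muscle rose in 6 of 14 with 0 falling (median 0.47). Mylk, the myosin light chain kinase, had 9319 and 9097 at 24 h, against 4710.1 and 4161 at 4 h (1.06, standard error 0.14, adjusted p = 0.00129), Acta2 had 25048 and 23776 at 24 h, against 14279 and 14828 at 4 h (0.75, standard error 0.09, adjusted p = 8.53e-04) and Myh11 had 7965 and 7476 at 24 h, against 4539 and 4597 at 4 h (0.76, standard error 0.11, adjusted p = 0.00153). Pdgfrb (0.17) and Rgs5 (-0.21), markers of pericytes, did not pass. Skeletal muscle, which lies under the skin and can vary with the depth of a sample, had 3 of 34 genes higher and 3 lower. Its median was 0.03, with -0.25 under the ribosomal scaling and -0.02 under the shift, which left 2 genes higher and 3 lower. Ckm had 31367 and 27605 at 24 h, against 22531 and 22855 at 4 h (0.37, standard error 0.12, adjusted p = 0.0491). Acta1 had 23776 and 23998 at 24 h, against 30925 and 32979 at 4 h (-0.42, standard error 0.09, adjusted p = 0.00922), and Myh4 was at -0.35. Ckm did not pass when any 1 acetone array was left out, and Acta1 not without 4 h replicate 2 or 24 h replicate 1. The skeletal muscle counts were 0 higher and 1 lower without 4 h replicate 1, 2 and 0 without 4 h replicate 2, 1 and 0 without 24 h replicate 1, and 0 and 10 under the ribosomal scaling. Dermal matrix genes rose in 9 of 41 (22%) and fell in 4 (9.76%), against 15.5% and 14.2% of all probes. On the 4 acetone arrays alone 8 rose and 2 fell. The rises were modest, with Col7a1, the anchoring collagen of the epidermis, at 5489 and 4716 at 24 h, against 3432 and 2813 at 4 h (0.71, standard error 0.15, adjusted p = 0.00904), and Eln, elastin, at 0.51, while Col1a1 did not pass (0.10). Col7a1 did not pass without 4 h replicate 2 or 24 h replicate 1, and in the whole list 1 gene rose without 4 h replicate 1, 0 without 4 h replicate 2 and 1 without 24 h replicate 1. The falls were 1 without 4 h replicate 1 and 2 without 4 h replicate 2 or 24 h replicate 1, and 0 genes of the list rose under the ribosomal scaling and 4 under the shift.

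**Figure D5:**
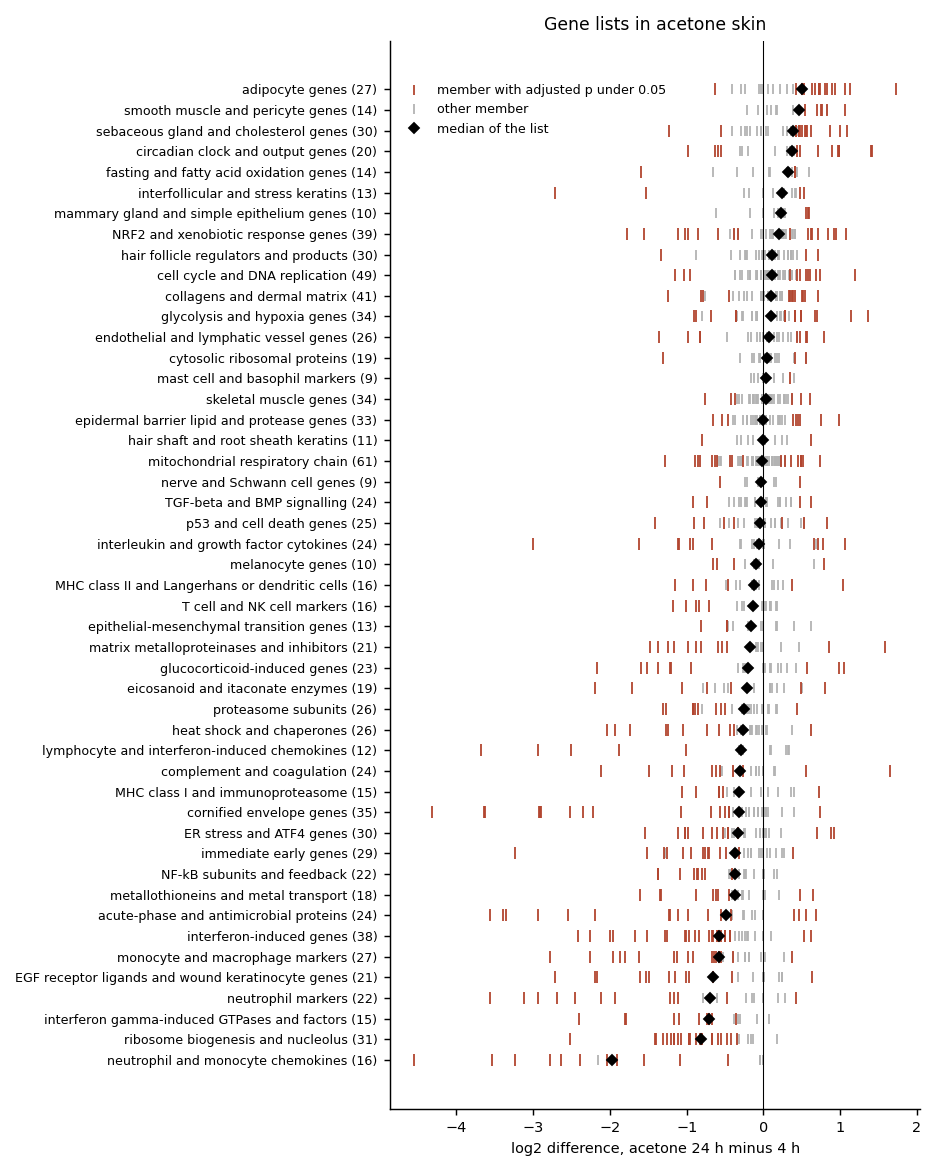
Log2 difference between acetone 24 h and acetone 4 h (horizontal axis) for every measured member of 48 gene lists with at least 9 measured genes; red ticks passed the test, grey ticks did not, diamonds are medians, and numbers in brackets count measured genes. Medians ran from -1.97 for neutrophil and monocyte chemokines to 0.50 for adipocyte genes.

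Proliferation and hypoxia genes moved in both directions. Of 49 cell cycle genes 9 rose (18.4%) and 3 fell (6.12%), against 15.5% and 14.2% of all probes. The median was 0.12, with -0.16 under the ribosomal scaling and 0.07 under the shift. Ccnd2 had 1882 and 2371 at 24 h, against 899.8 and 946 at 4 h (1.2, standard error 0.17, adjusted p = 0.00176) and Ccnd1 had 5437 and 5773 at 24 h, against 11587 and 11444 at 4 h (-1.04, standard error 0.12, adjusted p = 6.72e-04), a pair of D-type cyclins with opposite changes, while Mki67 (-0.27) and Top2a (-0.03) did not pass. Of 34 glycolysis and hypoxia genes 10 rose (29.4%) and 5 fell (14.7%), and 5 fell under the shift too. Pdk1, which limits pyruvate entry to mitochondria, had 2801 and 2646 at 24 h, against 1043 and 1073 at 4 h (1.36, standard error 0.13, adjusted p = 2.29e-04), and Ankrd37 rose by 1.14, while Slc2a1 (-0.91) and Pkm (-0.88) fell and Vegfa did not pass (-0.08). The 10 rises were 3 without 4 h replicate 1, 5 without 4 h replicate 2, 6 without either 24 h array, 2 under the ribosomal scaling and 7 under the shift. The 5 falls were 1 without 4 h replicate 1, 0 without 4 h replicate 2, 2 without 24 h replicate 1, 3 without 24 h replicate 2 and 8 under the ribosomal scaling. The 9 cell cycle rises were 2 without either 4 h array, 3 without 24 h replicate 1, 1 under the ribosomal scaling and 6 under the shift, and the 3 falls were 6 without 24 h replicate 2. Of 13 measured genes of a list for epithelial-mesenchymal transition, Mmp9 (-0.47), Ctnnb1 (-0.48) and Fn1 (-0.82) fell and 0 rose, and 1 of these falls passed without either 4 h array, without 24 h replicate 1 or on the 4 acetone arrays alone. Cdh1 (-0.40), Snai1 (0.62), Snai2 (-0.20), Twist1 (0.17) and Zeb1 (-0.17) did not pass, and Vim was saturated at both times. Zeb2 did not pass on its brightest probe (-0.47), and its other probes passed in opposite directions, at -1.66 and 1.29.

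The counts of the remaining lists stand beside 15.5% of all probes higher and 14.2% lower. Hair shaft keratins had 1 of 11 higher and 1 lower, and hair follicle regulators 2 of 30 higher and 1 lower. The mitochondrial respiratory chain had 8 of 61 higher (13.1%) and 10 lower (16.4%). TGF-beta and BMP signalling had 2 of 24 higher and 2 lower, and nerve and Schwann cell genes 1 of 9 higher and 1 lower. Melanocyte genes had 1 of 10 higher and 3 lower, and 0 higher and 0 lower on the 4 acetone arrays alone. The respiratory chain had 1 higher and 3 lower without 4 h replicate 1, 1 and 1 without 4 h replicate 2, 1 and 2 without 24 h replicate 1, and 4 and 8 without 24 h replicate 2, with 0 higher under the ribosomal scaling and 5 under the shift. None of the 3 falls of melanocyte genes passed without either 4 h array or 24 h replicate 1. Vessel genes had 5 of 26 higher and 4 lower, with Pecam1 at 0.08 and Pdpn, of lymphatic vessels and also of activated keratinocytes, at 12109.8 and 11439 at 24 h, against 28259 and 32211 at 4 h (-1.36, standard error 0.11, adjusted p = 9.55e-05). The vessel rises were 0 without 4 h replicate 1, 1 without 4 h replicate 2 or 24 h replicate 1, and 3 without 24 h replicate 2, and the falls were 2 without 4 h replicate 1. Cell death genes had 3 of 25 higher and 5 lower, among them the necroptosis kinase Ripk3 at 617 and 609 at 24 h, against 1418 and 1872 at 4 h (-1.41, standard error 0.18, adjusted p = 0.00118). In this list 3 fell without either 4 h array or 24 h replicate 1, and 0 rose without 4 h replicate 2 and 1 without 24 h replicate 1. Mammary and simple epithelium genes, 10 measured with 3 higher, had Krt18 at the floor on all 4 arrays, and 0 rose without either 4 h array and 1 without 24 h replicate 1. Fasting and fatty acid oxidation genes had 2 of 14 higher and 1 lower, and of 3 measured red blood cell genes 1 was higher. Under the ribosomal scaling 2 cytokines, 0 acute-phase genes, 2 barrier genes, 4 NRF2 and xenobiotic genes and 0 vessel genes rose, and under the shift 4, 2, 3, 8 and 2.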

How the data were processed

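Abdominal skin RNA was read on 8 single-colour mouse OneArray arrays, 2 per group, of which the 4 acetone arrays are described here. The deposited values are linear intensity, normalized by the authors. No source used here gave the normalization method, and the array medians are nearly equal. Quantile normalization of the values again gave the same 2144 probes higher and 1961 lower. The arrays thus already shared nearly the same distribution, and that setting could change little. Of 29922 probes, 13853 had values and 16069 were blank on every array. Probe genes come from the platform annotation, with 11550 probes assigned to 1 symbol and 9987 genes measured. A gene is represented by its probe of highest mean over the 8 arrays.

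Intensities below the 5th percentile (203.4) were set to it, and values were taken to log2. Readings of 65000 or more were treated as saturated. limma 3.58.1 in R 4.3.3 was fitted to all 8 arrays as 4 groups with a variance trend, and p-values were adjusted by Benjamini-Hochberg over the 13853 probes with a threshold of 0.05. Differences are log2 of 24 h minus 4 h. A fold is a lower bound ("at least") where the dim group is at the floor or the bright group is saturated. The fit was tested on simulated data. With 2 arrays per group the precision is limited by their number.

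Genes named are the 20 largest changes each way among genes that passed, and members of gene lists. The members and lists were chosen with earlier results of these data known. Some genes stand in several lists. Promoter sequences are RefSeq's for GRCm38.p6, and 8050 measured genes matched one by symbol. Replicate numbers did not pair the acetone arrays (correlation of deviations 0.0668 between the acetone groups). Between other groups the correlation ran from -0.2121 to 0.2134. Alternatives were another normalization, floor, filter, variance model and threshold, and each array left out.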

Additional observations from a re-analysis of the deposited data

Results flagged for a closer look

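The change over time differed between shikonin and acetone skin in 5999 of 13853 probes by the test of the difference (limma, Benjamini-Hochberg). The same test passed in 39 of the 40 genes with the largest change in acetone skin. The exception was Xirp1 (difference 0.57, adjusted p = 0.0857). Those 40 genes were chosen by the acetone change, which is part of the difference tested, so the choice itself favoured a high count. The differences below come from the same 40 genes. Several of the genes that rose with time in acetone skin had a lower change in shikonin skin. The difference of the log2 change, shikonin minus acetone, was -3.75 for Hadh, -2.90 for Acsl1, -4.10 for Slc38a5, -5.09 for Ptn, -1.99 for Ffar4 and -2.48 for Abca9. Slc38a5, Ptn, Ffar4 and Abca9 were at the floor in shikonin skin at 24 h, and Slc38a5 also in acetone skin at 4 h, so in these 4 genes the difference is a bound and at least as large in size as given. Among genes that fell in acetone skin the difference was 4.93 for Cxcl5, 5.28 for Sprr2f, 4.92 for Saa3, 3.52 for Clec4d, 3.55 for Sprr2e and 4.73 for Fcgr4. Cxcl5 was saturated in shikonin skin at 24 h and at the floor in acetone skin at 24 h, so its difference is at least as large as given. Saa3 was saturated on 1 of the 2 shikonin arrays at 24 h, so its difference may be understated. The shikonin and the acetone comparison have no array in common. Of the probes that passed in both, 1005 moved the same way and 1231 the opposite way. Groups of 2 arrays could not be tested for single distant samples.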

How the results depend on the processing

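Against 2144 probes higher and 1961 lower, scaling each array to the median level of the ribosomal protein list gave 515 and 3287, shifting it by the median deviation of that list (chosen after seeing the data) 1573 and 2200, the 4 acetone arrays alone 1516 and 1279, a floor at the 25th percentile 1616 and 1149, leaving out the dimmer probes (50% of them) 1281 and 1262, an adjusted p of 0.01 859 and 921, and a further 2-fold minimum 202 and 625. Leaving out 1 array gave 787 to 2242 higher and 842 to 2041 lower. Of 516 probes past 2-fold in both same-number pairs, a 1.5-fold minimum gave 1937, a 3-fold minimum 123, ribosomal scaling 853, and leaving out the dimmer probes 278. The difference from shikonin skin, 5999 probes, was 3509 without the dimmer probes. Fewer probes are tested in that setting, and the cause of the other changes was not tested. In some lists calls were fewer on the 4 acetone arrays alone. There 4 of 18 metal transport genes and 5 of 61 respiratory chain genes fell, against 8 and 10. Rises numbered 5 in cell cycle, 2 in vessel and 0 in cell death genes there, against 9, 5 and 3. With the 25th percentile floor Il1f9 and Il24 were both at the floor at both times, with a difference of 0.00. Replicate numbers did not pair the acetone arrays (r = 0.0668 between the acetone groups, and -0.2121 to 0.2134 between other groups). With the number as a replicate block 2078 probes were higher, 1867 lower and 5898 differed from shikonin skin. Of 297 genes named, the block lost the call in 4, the 4 acetone arrays alone in 25, ribosomal scaling in 24, the shift in 11, the 25th percentile floor in 33, and leaving out an acetone array in 10 (24 h replicate 2) to 40 (4 h replicate 2). Among these results no direction was reversed in any other setting that was run. Probes at the floor on all 4 acetone arrays (248) have no measured difference. Among probes saturated on at least 1 acetone array (113), those saturated at both times have none either. For those saturated only at the brighter time the difference is a lower bound.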

Other observations

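The following genes were chosen after their values were seen. Xirp1, a repair protein of striated muscle, had 426 and 369.7 at 24 h, against 4348 and 3861 at 4 h (-3.37, standard error 0.17, adjusted p = 4.27e-06), beside a median of 0.03 over the skeletal muscle list. Asb5, another muscle transcript, had 170.4 and 184 at 24 h, against 816 and 1012 at 4 h and was at least 4.47-fold lower (adjusted p = 6.03e-04). Has1, a hyaluronan synthase, had 275 and 303 at 24 h, against 1656 and 1407 at 4 h (-2.40, standard error 0.16, adjusted p = 2.55e-05), and Has3 had 151 and 176 at 24 h, against 659 and 713 at 4 h and was at least 3.37-fold lower (adjusted p = 6.47e-05). Tnfrsf12a, the receptor of TWEAK, had 2504 and 2509 at 24 h, against 10126 and 11403 at 4 h (-2.10, standard error 0.12, adjusted p = 1.07e-05). Of 1379 genes with more than 1 probe, 196 had at least 2 probes that passed, and 33 of these had probes that passed in both directions. Btg1, an antiproliferative gene, did not pass on its brightest probe (-0.48), while its other probes rose by 2.69 and 2.29.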
